A study of Mus musculus with 2 samples.

Results

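The secreted antagonists of the Wnt pathway were described in single-cell RNA data from the mouse retinal pigment epithelium (RPE), choroid and sclera. The members were 9 named genes, Sfrp1, Sfrp2, Sfrp4, Sfrp5, Frzb, Wif1, Dkk2, Dkk3 and Sostdc1, out of 32285 genes in the deposited files, and each was matched by its gene symbol. All eyes came from male C57BL/6J mice that were 3 months old, and the retina had been removed before the tissue was dissociated with papain. The control mice received 1 µl of phosphate-buffered saline under the retina, and the Dox mice received 1 µl of doxorubicin, a drug that damages DNA, at 100 ng/µl. Cells were collected 7 days later, and 10 eyes of 5 mice were pooled for each condition. Each condition was therefore 1 library of the 5′ kit with no replicate, and the drug, the pool of mice and the library cannot be told apart. No test between conditions was made. All intervals are 95% intervals that cover counting error only.

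Wnt proteins are secreted ligands that bind frizzled receptors and the co-receptors LRP5 and LRP6, and in the canonical branch this stabilises β-catenin. Secreted antagonists act outside the cell in different ways. The SFRP proteins and Frzb carry a cysteine-rich domain like that of the frizzled receptors and bind the ligands, and Wif1 binds the ligands through another domain. Dkk2 binds the co-receptors, Dkk3 is a divergent member of its family, and Sostdc1 binds both LRP co-receptors and bone morphogenetic proteins. Wnt signalling is known for its part in forming and maintaining the RPE and in the growth of connective tissue around the eye.

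The control library held 20381 cells and 117731270 UMIs (unique molecular identifiers, 1 per captured RNA molecule), and the Dox library held 15649 cells and 103997248 UMIs. The limits on UMIs, genes, complexity and mitochondrial share kept 20180 and 15426 cells, with a median of 4495 and 4995 UMIs. The members took 62935 UMIs in control and 51422 in Dox. The libraries shared 441 cell barcodes. Levels are given as CPM, the UMIs of a gene per 1000000 UMIs of the cells of a class.

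Fibroblasts were cells with at least 5 Dcn UMIs and 2000 CPM of Dcn (decorin, a matrix proteoglycan), and RPE cells had at least 10 UMIs of Rpe65, the isomerase of the visual cycle. This gave 11464 control and 8357 Dox fibroblasts (56.8% and 54.2% of kept cells), against 1336 and 1490 RPE cells (6.62% and 9.66%), although the samples were labelled as RPE. A further 190 control and 140 Dox cells met both gates and were kept apart. The gates matched the clustering, since 91.5% and 95.03% of the fibroblasts lay in the clusters led by Myoc, Cxcl10 or Dpt, and 92.4% and 91.3% of the RPE cells lay in the RPE-like cluster. Of 12 fibroblast markers, 11 were at 10 CPM or more in fibroblasts, with a summed level of 22079 (control) and 21796 CPM (Dox) against 779 and 463 CPM in RPE cells. Of 9 RPE markers, 8 were at 10 CPM or more in RPE cells, with a sum of 101562 and 101139 CPM against 3209 and 4941 CPM in fibroblasts. Many cells lay near the gates. Of the fibroblasts, 2424 in control and 1973 in Dox had 5 to 9 Dcn UMIs or 2000 to 4000 CPM, and of the RPE cells, 177 and 230 had 10 to 19 Rpe65 UMIs. The NK or T-like cells (389 and 241 cells outside both gates) should lack all of these genes, so their level served as the free RNA level, the RNA from broken cells that enters every droplet.

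The windows of 250 bases before the transcription start are shown for 3 members that differed strongly between the cell types, Sfrp2 and Dkk2 on the fibroblast side and Sfrp5 on the RPE side. The RefSeq table of GRCm38.p6 held a window for 5 of the 9 members. The windows lay at chr3:83766071-83766320 on the plus strand for Sfrp2, at chr3:132085042-132085291 on the plus strand for Dkk2 and at chr19:42202253-42202502 on the minus strand for Sfrp5, and capitals mark TATAAA, the TATA box.
Sfrp2: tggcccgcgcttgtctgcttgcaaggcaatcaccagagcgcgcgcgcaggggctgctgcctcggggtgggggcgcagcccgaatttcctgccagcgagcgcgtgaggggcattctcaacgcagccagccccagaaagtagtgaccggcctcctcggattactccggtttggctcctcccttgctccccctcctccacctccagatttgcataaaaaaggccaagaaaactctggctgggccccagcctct
Dkk2: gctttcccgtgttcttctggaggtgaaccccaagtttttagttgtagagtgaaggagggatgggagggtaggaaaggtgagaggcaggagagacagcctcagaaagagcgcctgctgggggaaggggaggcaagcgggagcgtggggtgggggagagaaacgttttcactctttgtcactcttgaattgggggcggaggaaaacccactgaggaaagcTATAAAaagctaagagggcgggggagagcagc
Sfrp5: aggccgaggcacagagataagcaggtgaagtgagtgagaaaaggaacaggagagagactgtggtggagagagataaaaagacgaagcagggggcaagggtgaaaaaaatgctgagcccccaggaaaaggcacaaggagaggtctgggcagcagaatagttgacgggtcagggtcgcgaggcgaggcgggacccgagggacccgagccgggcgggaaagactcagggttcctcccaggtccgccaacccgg
6 motifs were searched on both strands. Dkk2 held TATAAA 32 bases before the start, a motif found in 12.4% of 32851 such windows. Sfrp2 held only TAATCC, 96 bases before the start (6.25% of windows), and Sfrp5 only the E-box CANNTG, 229 bases before the start (66.2%). None of these 3 windows held CTTTGA, the core of the TCF and LEF sites (13.8%), or the E-boxes CACGTG (6.02%) and CATGTG (12.3%), both of which are cases of CANNTG. Of the windows not shown, that of Frzb held CTTTGA 95 bases before the RefSeq start. That of Wif1 held TATAAA 232 and CACGTG 210 bases before the RefSeq start. The windows of Frzb (chr2:80447397-80447646) and Wif1 (chr10:121033754-121034003) reach into the genes at their GENCODE positions given below. For these genes the 2 sources place the start differently. A match of letters is no evidence of binding.

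The first comparison asked which of the 2 main cell types carried each antagonist. Sfrp1, Sfrp5 and Sostdc1 were higher in RPE cells, and Sfrp2, Sfrp4, Frzb, Wif1, Dkk2 and Dkk3 were higher in fibroblasts. A member was called when it differed by at least 2-fold in both libraries, with intervals that excluded 1. This gave 3 of 9 members on the RPE side, beside 15% of the 15089 genes compared, and 6 of 9 on the fibroblast side, beside 27.6% of genes.

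Sostdc1 (ENSMUSG00000036169, chr12:36314139-36318452, plus strand, GRCm38), the antagonist of Wnt and BMP signals, was at 458 CPM in control RPE cells (10738 UMIs, interval 449 to 467) and 397 CPM in Dox RPE cells (11588 UMIs, 389 to 404). In fibroblasts it was at 97.7 (control) and 104 CPM (Dox). RPE cells were therefore 4.69-fold higher in control and 3.83-fold higher in Dox, and the intervals of the 2 cell types did not overlap in either library. Sostdc1 UMIs were found in 83.8% of control and 84.2% of Dox RPE cells, against 26.6% and 30.3% of fibroblasts and 7.71% and 9.54% of NK or T-like cells. The median depth was 16682.5 and 19084.5 UMIs in RPE cells, 4958.5 and 5550 in fibroblasts and 3436 and 3614 in NK or T-like cells. With each cell thinned to 2000 UMIs, the shares were 47.4% and 44.7% in RPE cells, 12.9% and 13.8% in fibroblasts and 2.94% and 6.16% in NK or T-like cells. The order of the 3 classes was the same at equal depth.

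Sfrp5 (ENSMUSG00000018822, chr19:42197971-42202252, minus strand) was the most uneven of the 3 between the cell types. It was at 72.9 CPM in control RPE cells (1710 UMIs) and 77.5 CPM in Dox RPE cells (2263 UMIs), and at 2.85 CPM (182 UMIs) and 5.10 CPM (255 UMIs) in fibroblasts. RPE cells were 25.6-fold higher in control and 15.2-fold higher in Dox. The fibroblast level was close to the free RNA level of 3.37 (control) and 4.05 CPM (Dox). It was also 1.04 times (interval 0.895 to 1.203) and 1.24 times (1.09 to 1.40) what RPE RNA would bring to fibroblasts at the ratio of Sfrp5 to Rpe65 seen in RPE cells. Sfrp5 was found in 52.3% and 52.6% of RPE cells (11.4% and 11.6% when thinned), and in 1.03% and 1.24% of NK or T-like cells.

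Sfrp1 (ENSMUSG00000031548, chr8:23411502-23449632, plus strand) was at 174 CPM in control RPE cells (4092 UMIs, 169 to 180) and 192 CPM in Dox RPE cells (5619 UMIs, 187 to 197). Fibroblasts held 52.8 CPM (3374 UMIs) in control and 65.2 CPM (3265 UMIs) in Dox, so RPE cells were 3.30-fold and 2.95-fold higher. Unlike Sfrp5, the fibroblast level was 8.06 and 6.41 times what RPE RNA would bring by the same yardstick. The corresponding values for Sostdc1 were 5.68 and 4.93. Rpe65 was also the gate gene of RPE cells, so this yardstick can read high in cells kept below that gate. In RPE-like cells below the gate Sfrp1 was at 4.91 and 5.31 times, Sostdc1 at 1.82 and 2.48 and Sfrp5 at 1.75 and 0.761. Sfrp1 was found in 79.6% and 85.6% of RPE cells, in 21.8% and 27.5% of fibroblasts and in 7.46% and 9.96% of NK or T-like cells. Thinned to 2000 UMIs these became 30.4% and 33.1%, 9.16% and 11.2%, and 3.82% and 5.69%.

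On the fibroblast side, Dkk2 (ENSMUSG00000028031, chr3:132085292-132180304, plus strand), whose protein binds the LRP co-receptors, was at 83.9 CPM in control fibroblasts (5361 UMIs) and 94.97 CPM in Dox fibroblasts (4753 UMIs), with a UMI in 27.3% and 31.0% of the cells (12.9% and 13.5% when thinned). RPE cells held 2.98 and 2.26 CPM, 28.1-fold and 42.04-fold less. In NK or T-like cells it was at 9.44 and 4.05 CPM, with a UMI in 2.06% and 1.66% of cells. In RPE cells with under 100 CPM of Dcn the Dkk2 level was 0.762 (control) and 0.551 CPM (Dox), against 7.52 and 9.40 CPM in those with more Dcn. The Dkk2 of RPE cells thus moved with their Dcn. Sfrp2 did not, at 1.02 against 1.30 CPM in control and with 13 against 0 UMIs in Dox. The source of the Dkk2 in RPE cells was not tested.

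Sfrp2 (ENSMUSG00000027996, chr3:83766321-83774316, plus strand) and Sfrp4 (ENSMUSG00000021319, chr13:19623104-19632994, plus strand) are both of the secreted frizzled-related family, and their RPE counts were small. Sfrp2 was at 42.3 CPM (2700 UMIs) in control fibroblasts and 36.4 CPM (1824 UMIs) in Dox fibroblasts, against 26 and 13 UMIs in RPE cells, a difference of 38.1-fold and 81.9-fold. Sfrp4 was at 26.7 CPM (1708 UMIs) and 8.29 CPM (415 UMIs) in fibroblasts, against 14 and 32 UMIs in RPE cells, a difference of 44.8-fold and 7.57-fold. Of the 32 Sfrp4 UMIs of Dox RPE cells, 26 lay in 1 cell, which held 28 Dcn UMIs and fell in the Myoc-led cluster. The Sfrp4 level of Dox RPE cells therefore rested on that cell.

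Wif1 (ENSMUSG00000020218, chr10:121033960-121100650, plus strand), the Wnt inhibitory factor, was at 4.48 CPM (286 UMIs) in control fibroblasts and 5.37 CPM (269 UMIs) in Dox fibroblasts. RPE cells held 1 and 5 UMIs, so the log2 ratio of fibroblasts over RPE cells was known only within 4.22 to 12.02 in control and 3.73 to 6.61 in Dox. No NK or T-like cell held a Wif1 UMI, and 0 counts allow up to 2.02 (control) and 3.04 CPM (Dox). Frzb (ENSMUSG00000027004, chr2:80411970-80447625, minus strand), which binds Wnt ligands through its cysteine-rich domain, was at 3.98 CPM (254 UMIs) and 4.12 CPM (206 UMIs) in fibroblasts, against 21 and 13 UMIs in RPE cells. The NK or T-like cells held 1 and 4 Frzb UMIs, and the Dox value of 4.05 CPM was close to that of Dox fibroblasts. A Frzb level above free RNA was not detectable in Dox fibroblasts at this depth.

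Dkk3 (ENSMUSG00000030772, chr7:112116017-112159057, minus strand) had its highest level outside the fibroblasts in both libraries. Among classes of at least 100 cells Frzb did too, at 14.5 (control) and 6.26 CPM (Dox) in melanocyte-like cells. Sfrp4 did so in Dox only. With clusters at resolution 0.2, Sfrp2 was highest in melanocyte-like cells and Dkk2 in Gpha2-led cells outside the gates, in both libraries. The Gpha2-led cluster had Myoc, Tnmd and Chad among its leading genes. Of its cells, 97.2% (control) and 97.4% (Dox) lay in the fibroblast gate, with cells in both gates counted. The Gpha2-led cells named here were thus the small remainder of a fibroblast cluster. At resolution 0.1 melanocyte-like cells held Sfrp2 at 40.8 (control) and 26.7 CPM (Dox), against 42.3 and 36.4 CPM in fibroblasts. Dkk3 was at 165 CPM in control fibroblasts (10530 UMIs) and 118 CPM in Dox fibroblasts (5927 UMIs). RPE cells held 54.9 and 51.5 CPM, so fibroblasts were 3.00-fold and 2.30-fold higher. The NK or T-like cells, however, held 158 (control) and 36.4 CPM (Dox). In CPM, control fibroblasts were thus near the NK or T-like level and control RPE cells below it, while Dox fibroblasts were above it. CPM divides by the UMIs of a class, and the NK or T-like cells were the shallowest of the 3 classes. The same number of free UMIs per cell would thus give them a higher CPM. In control, 389 NK or T-like cells held 234 Dkk3 UMIs, 1336 RPE cells held 1287 and 11464 fibroblasts held 10530. Per cell, control RPE cells and fibroblasts therefore held more Dkk3 UMIs than NK or T-like cells. They were also deeper, with a median of 16682.5 and 4958.5 UMIs against 3436. By the rule in CPM given below, neither RPE cells nor fibroblasts counted as above free RNA for Dkk3 in both libraries. That rule takes no account of depth, so it does not settle whether their Dkk3 lay above free RNA. Melanocyte-like cells held 1260 CPM in control (5032 UMIs) and 895 CPM in Dox (2145 UMIs). The summed level of 8 melanocyte markers in NK or T-like cells was 3670 (control) and 803 CPM (Dox). This sum and the Dkk3 level of those cells were both lower in Dox, and the source of the free Dkk3 was not tested. The fibroblast gate took in 336 control and 98 Dox cells of the melanocyte-like cluster, with cells in both gates counted. The fibroblast with the most Dkk3 in each library (21 and 19 UMIs) lay in that cluster and held 52 and 63 Pmel UMIs. The part of melanocyte RNA in the fibroblast values was not tested beyond the subtraction of the free RNA level given in the closing section.

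**Figure D1:**
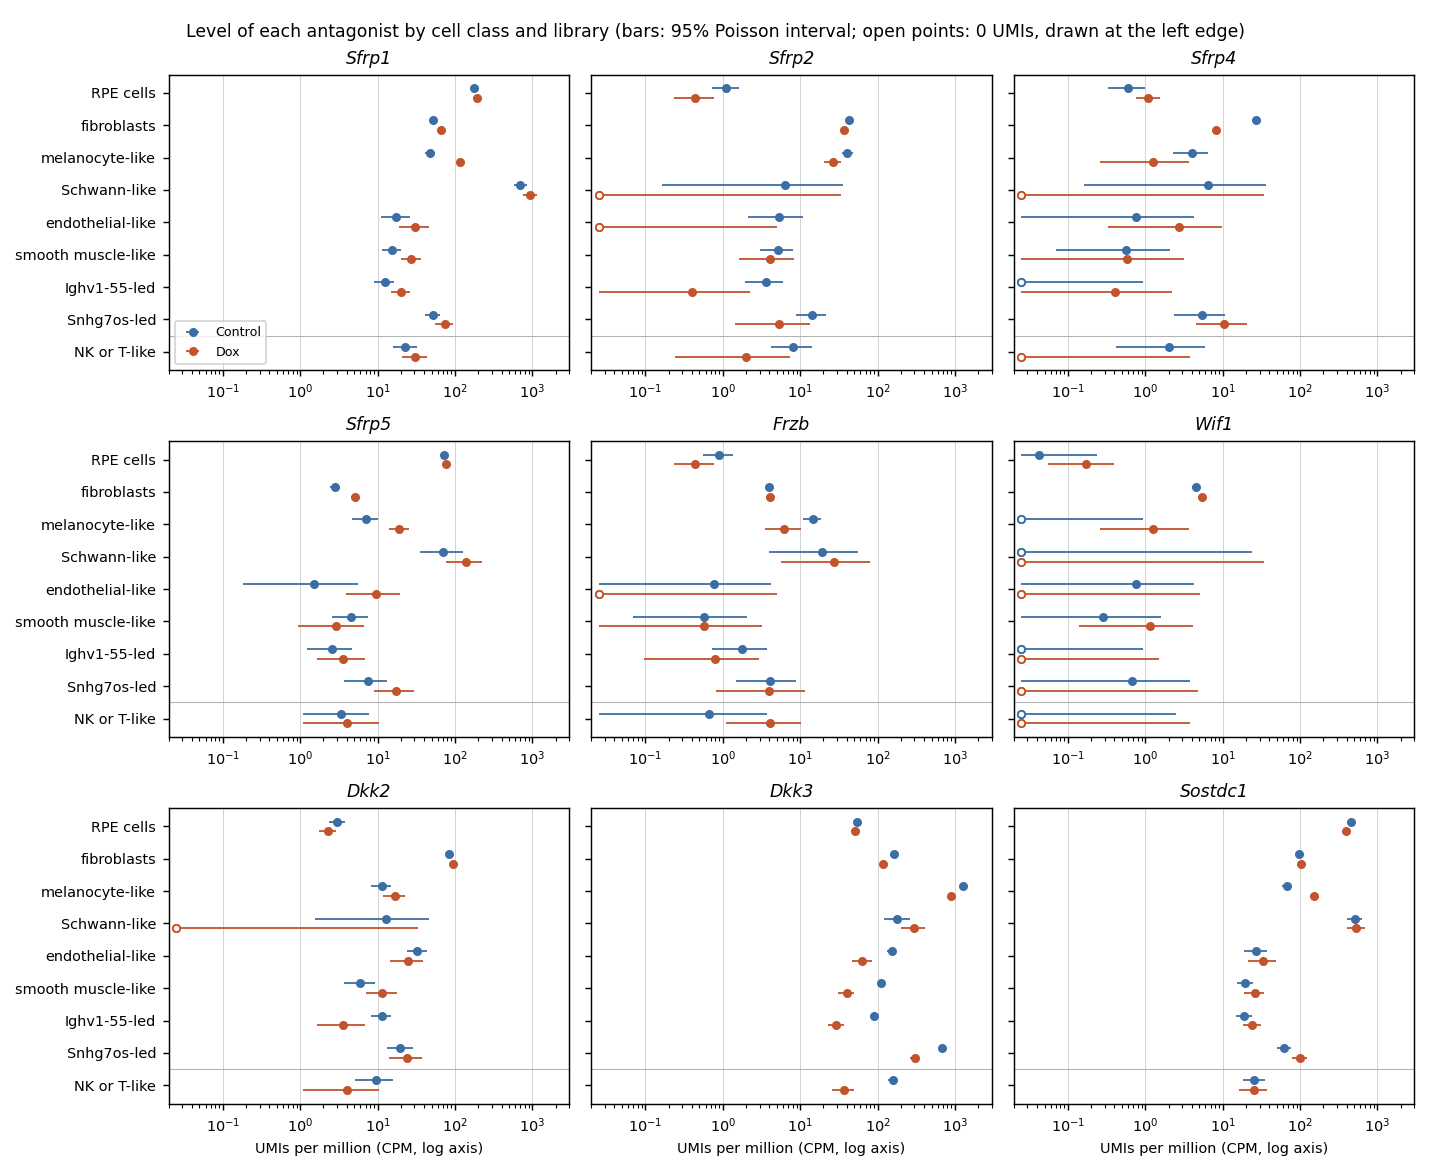
Level of each antagonist in UMIs per 1000000 (CPM, log axis) by cell class for the control and Dox libraries, with 95% Poisson intervals as bars and classes of 0 UMIs as open points at the left edge. Sfrp1, Sfrp5 and Sostdc1 lay higher in RPE cells than in fibroblasts, Dkk2 lay highest in fibroblasts and Dkk3 in melanocyte-like cells, and the NK or T-like row below the line gives the free RNA level.

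The members that RPE cells held were then set against fibroblast RNA by a yardstick. Within a library 1 source keeps its genes in 1 ratio, so the Dcn UMIs of RPE cells (5286 in control and 3522 in Dox) gave the UMIs of each member that fibroblast RNA would bring. Sfrp5 was at 1199 and 1228 times this amount, Sostdc1 at 220 and 309 times, and Sfrp1 at 155 and 238 times. Dkk3 was at 15.6 and 35.2 times and Frzb at 10.5 and 8.73 times, the latter from 21 and 13 UMIs. Sfrp2 was at 1.23 (0.803 to 1.80) and 0.986 (0.525 to 1.69), and both intervals included 1. With collagen genes, Lum and Mgp as the yardstick it was at 0.596 (0.389 to 0.873) and 0.522 (0.278 to 0.892), below 1 in both libraries. Dkk2 was at 1.67 and 1.92 by Dcn and at 0.808 and 1.02 by the collagen yardstick. Dcn was also the gate gene of the fibroblasts, so the Dcn yardstick reads high in cells kept below that gate. In Myoc-led cells below the gate Sfrp1 was at 7.11 and 5.73 times by Dcn, against 0.790 and 0.843 by the collagen yardstick. In both libraries and by both yardsticks, 5 members were more than 2-fold above fibroblast RNA, namely Sfrp1, Sfrp5, Frzb, Dkk3 and Sostdc1. The NK or T-like cells, which stand for free RNA, were also above fibroblast RNA by Dcn, at 34.6 and 15.5 times for Dkk3, 6.13 and 49.5 times for Frzb, 15.7 and 23.4 times for Sfrp1, 9.49 and 12.3 times for Sostdc1 and 42.8 and 40.02 times for Sfrp5. The NK or T-like cells also lay below the Dcn gate, so these values can read high. By the collagen yardstick Sfrp1 was still at 4.54 and 7.11 times in NK or T-like cells. The source of this RNA was not tested. For Sfrp1, Sfrp5 and Sostdc1 the RPE cells lay far above the NK or T-like values by Dcn. For Dkk3 in control and Frzb in Dox the RPE cells lay below the NK or T-like values, so this yardstick does not set the Dkk3 and Frzb of RPE cells apart from free RNA.

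Among the other classes, Schwann-like cells stood out for the 3 RPE-side genes, although they were only 52 cells in control and 31 in Dox. Sfrp1 was at 701 CPM in control (109 UMIs, 576 to 846) and 933 CPM in Dox (102 UMIs, 761 to 1132), above RPE cells in both libraries with no overlap of the intervals. Sostdc1 was at 508 CPM (402 to 633) and 530 CPM (403 to 686), and its intervals overlapped those of RPE cells in both libraries. Sfrp5 was at 70.7 CPM (11 UMIs) and 137 CPM (15 UMIs), and 1 cell held 7 of the 11 control UMIs. The Rpe65 UMIs of these cells (68 and 56) would bring far fewer of these transcripts, since Sfrp1 was at 47.4 and 47.1 times, Sostdc1 at 13.1 and 13.0 times and Sfrp5 at 11.5 and 17.2 times the RPE yardstick. All 7 Schwann markers were at 10 CPM or more in this cluster.

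A class was counted as above free RNA when it was at least 2-fold above NK or T-like cells in both libraries with an interval that excluded 1. By this rule Sostdc1 was above it in 8 classes, Sfrp1 in 7, Dkk2 in 6, Sfrp5 in 3, and Sfrp2 and Dkk3 in 2 each. The 2 classes were fibroblasts and melanocyte-like cells for Sfrp2, and melanocyte-like cells and the unnamed Snhg7os-led cluster for Dkk3. Sfrp4, Frzb and Wif1 were in none. The rule needs a ratio, which has no value where the NK or T-like cells held 0 UMIs. This was so for Wif1 in both libraries and for Sfrp4 in Dox. The rule could therefore count no class for Wif1 or Sfrp4, whatever their level. In fibroblasts Sfrp4 was at 26.7 (control) and 8.29 CPM (Dox), and Wif1 at 4.48 and 5.37 CPM. For Frzb the NK or T-like cells held 1 (control) and 4 UMIs (Dox), and the intervals were wide. The counts for Sostdc1, Sfrp1, Dkk2 and Sfrp5 include the cells in both gates. Those for Sostdc1, Sfrp1 and Dkk2 also include RPE-like or fibroblast clusters below the gates. The rule takes no account of depth, a median of 1711 and 1631 UMIs in Snhg7os-led against 3436 and 3614 in NK or T-like cells. In Snhg7os-led cells Sostdc1 was at 0.834 and 0.837 times the RPE yardstick, and Sfrp1 at 1.83 and 1.29 times. The melanocyte-like cells were shallow, with a median of 1067 and 745 UMIs, and their first leading gene was the haemoglobin gene Hbb-bs, with Pmel among the 10 leading genes.

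Within the fibroblasts, Sfrp2 and Sfrp4 came from few cells. Sfrp4 had a UMI in 1.14% of control and 0.885% of Dox fibroblasts, yet 56 control cells and 27 Dox cells with at least 3 UMIs held 95.1% and 85.3% of its UMIs. The highest single cells held 304 of 1708 and 81 of 415 UMIs. Sfrp2 had a UMI in 3.52% and 2.99% of fibroblasts, and 129 and 84 cells with at least 3 UMIs held 88.7% and 89.9% of its UMIs, with 149 and 130 in the highest cells. In contrast, no fibroblast held more than 2 Frzb UMIs, and the highest fibroblast held 8 Sfrp1 UMIs in each library.

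Most of the Sfrp4 lay in a small cluster led by Dpt, the gene of the matrix protein dermatopontin. Its 110 control and 69 Dox fibroblasts held 88.2% and 81.0% of the Sfrp4 UMIs and 42% and 32.3% of the Sfrp2 UMIs of all fibroblasts. No member was used to form the clusters, but Sfrp4 was among the genes that led this one, so the values are a description only, and this split was chosen after the data were seen. Sfrp4 was at 1975 CPM in control (1877 to 2077) and 663 CPM in Dox (594 to 738) in this cluster, against 3.18 and 1.59 CPM in the other fibroblasts. Sfrp2 was at 1486 and 1165 CPM in the cluster, against 24.8 and 24.9 CPM outside it. Sostdc1 went the other way, with 22.3 CPM (17 UMIs) and 15.8 CPM (8 UMIs) in the cluster against 98.6 and 104 CPM outside.

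Sfrp2 and Sfrp4 were often found in the same cells, but Sfrp2 also had cells of its own. With cells thinned to 2000 UMIs, Sfrp2 was found in 44.9% of the control fibroblasts with an Sfrp4 UMI (35 of 78) and in 33.3% of those in Dox (12 of 36), against 1.88% and 1.67% of all fibroblasts. Of the cells with at least 3 UMIs, 34 in control and 10 in Dox held both, which was 60.7% and 37.0% of the Sfrp4 cells and 26.4% and 11.9% of the Sfrp2 cells. Of the 95 control and 74 Dox cells with Sfrp2 alone, 62 and 58 held at least 2 UMIs of Tnmd and Chad, genes known from tendon and cartilage.

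Each fibroblast was then placed by gene gates that used no member. The subsets held 2036 and 1566 cells with Cxcl9 or Cxcl10 (chemokines induced by interferon), 12 and 3 cells with Kera (keratocan of the corneal stroma), 825 and 610 with Tnmd or Chad, 666 and 504 Myoc-high cells, and 7925 and 5674 remaining cells. Of NK or T-like cells, 3.08% and 3.32% met the Cxcl gate and under 1% met each of the others. Sfrp2 was at 156 (control) and 197 CPM (Dox) in the Tnmd or Chad subset, and at 20.9 and 15.7 CPM in the remaining cells. Wif1 was at 15.7 and 20.9 CPM in the Tnmd or Chad subset, against 3.18 and 3.68 CPM in the remaining cells, and the intervals did not overlap in either library. Leaving out the few Kera cells, Sostdc1 was also highest there, at 199 and 177 CPM, and Dkk2 was highest in Myoc-high cells, at 161 and 166 CPM against 74.1 and 88.5 CPM in the remaining cells. The Tnmd or Chad cells were the deepest, with a median of 7854 and 8229.5 UMIs against 4689 and 5341.5 in the remaining cells, which raises shares of cells but not CPM.

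Sfrp1 varied little among these subsets, from 43.5 CPM in the Cxcl9 or Cxcl10 cells to 63.4 CPM in the Myoc-high cells in control, and from 56.6 CPM in the Cxcl9 or Cxcl10 cells to 71.8 CPM in the Tnmd or Chad cells in Dox, leaving out the few Kera cells. Dkk3 was highest in the remaining cells, at 174 and 124 CPM, again without the Kera cells. The cells of the melanocyte-like cluster within the fibroblast gate were not set apart in these subsets. The 12 Kera cells of control held 180 Sfrp2 UMIs (2660 CPM, 2286 to 3079) and 43 Sfrp4 UMIs (636 CPM). The 3 Kera cells of Dox held 101 Sfrp2 UMIs (8188 CPM) and 19 Sfrp4 UMIs (1540 CPM). The Sfrp2 level of the Kera cells lay above that of the Dpt-led cluster in both libraries, from very few cells. Kera was itself among the leading genes of the Dpt-led cluster, and the 2 groups can share cells, so they are not separate populations.

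**Figure D2:**
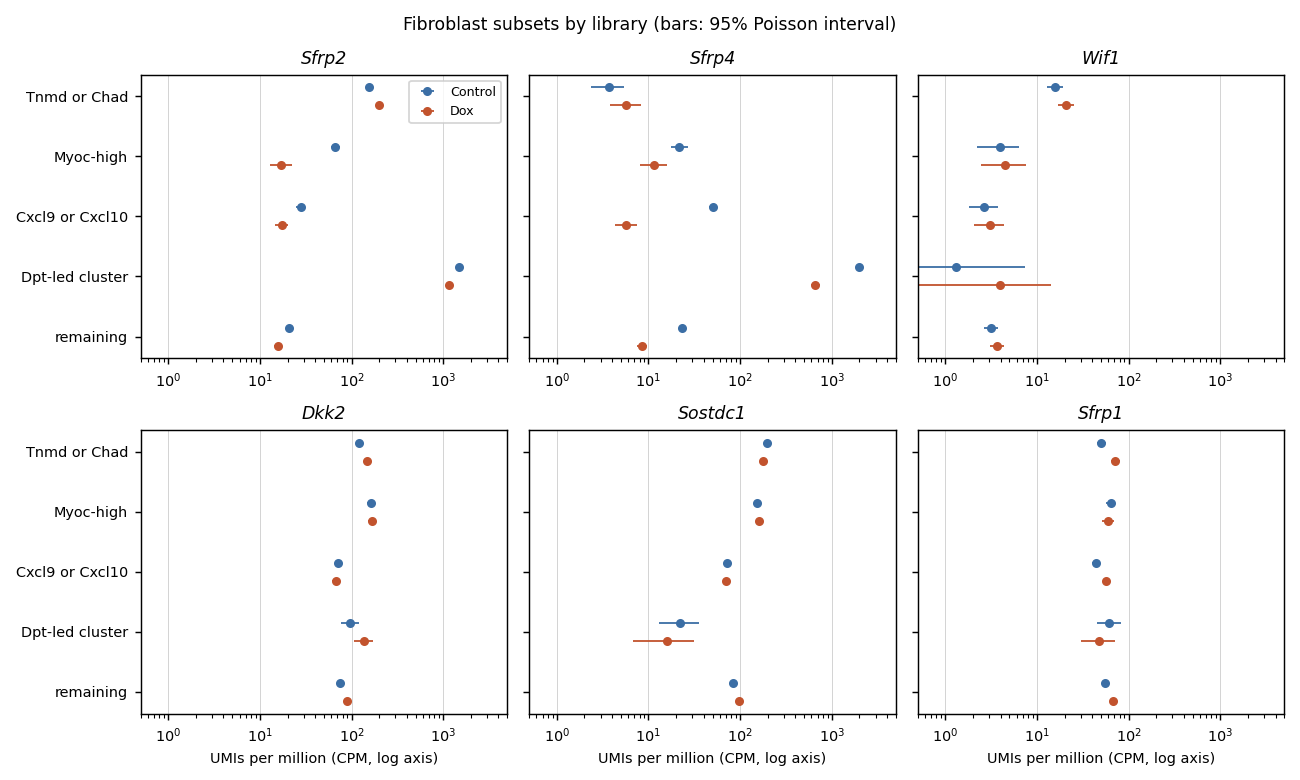
Levels of 6 antagonists in UMIs per 1000000 (CPM, log axis) in fibroblast subsets of the control and Dox libraries, with 95% Poisson intervals, 2 of which run past the left edge for Wif1. The Dpt-led cluster is a cluster whose cells also fall in the gated subsets. The 12 control and 3 Dox Kera cells are not drawn. Of the groups drawn, the Dpt-led cluster held the highest Sfrp2 and Sfrp4, at 1486 and 1975 CPM in control, and the Tnmd or Chad subset the highest Wif1, at 15.7 and 20.9 CPM.

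The second comparison set the Dox library against the control library within fibroblasts. Sfrp4 was lower in Dox and Sfrp5 was higher, and the other 7 members stayed within 1.5-fold. A gene was called when it differed by at least 1.5-fold with at least 20 UMIs over both libraries and an interval that excluded 1. This gave 2 of 9 members, beside 6.6% of the 15744 genes compared. The median log2 ratio of Dox over control was 0.08 for the members and -0.000448 for all genes.

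Sfrp4 was at 26.7 (control) and 8.29 CPM (Dox), a log2 ratio of -1.69 (-1.85 to -1.53), or 3.22-fold lower in Dox. It stayed past the fold in all 13 alternatives that gave a value, with log2 ratios from -1.79 to -0.998. The difference was present within the Dpt-led cluster (log2 ratio -1.57, -1.75 to -1.40) and outside it (-0.998, -1.39 to -0.62), from 201 and 79 UMIs outside. It rested on few cells all the same, since 9 control and 6 Dox fibroblasts held 50% or more of the UMIs. In the Dpt-led cluster, 64 of 110 control and 41 of 69 Dox fibroblasts held an Sfrp4 UMI. The share of cells was thus close in the 2 libraries, and the difference lay in the UMI counts. Of the 1507 control UMIs of the cluster, 304 lay in 1 cell, and the intervals do not cover such clumping. In the Cxcl9 or Cxcl10 subset Sfrp4 was at 50.04 (control) and 5.74 CPM (Dox). The control cell with 304 Sfrp4 UMIs held 4 UMIs of Cxcl9 and Cxcl10, which placed it in that subset of 604 control UMIs.

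Sfrp5 was at 2.85 (control) and 5.10 CPM (Dox) in fibroblasts, a log2 ratio of 0.84 (0.56 to 1.12). In Dox, 64 of 255 UMIs lay in 1 cell with 63 Dcn, 19 Myoc and 5 Rpe65 UMIs. Without the highest cell of each library the log2 ratio was 0.51 (0.21 to 0.82), which is under 1.5-fold. Rpe65, an RPE marker, was at 194 (control) and 263 CPM (Dox) in fibroblasts. Its part in the Sfrp5 difference was not tested.

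The log2 ratios of the other members in fibroblasts were 0.30 for Sfrp1 (0.23 to 0.37), 0.26 for Wif1 (0.02 to 0.51), 0.18 for Dkk2 (0.12 to 0.24), 0.08 for Sostdc1 (0.03 to 0.14), 0.05 for Frzb (-0.22 to 0.32) and -0.21 for Sfrp2 (-0.30 to -0.13). Dkk3 was at -0.48 (-0.52 to -0.43), and it turned to 3.53 when the free RNA level was subtracted. That step subtracts CPM without regard to depth, and it left little Dkk3 in control fibroblasts, so no direction of Dkk3 is given. The Sfrp2 difference was uneven, with -1.97 (-2.42 to -1.54) in Myoc-high cells, from 66.6 to 17.0 CPM in only 29 control and 14 Dox cells with a UMI, and 0.34 (0.22 to 0.47) in Tnmd or Chad cells.

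**Figure D3:**
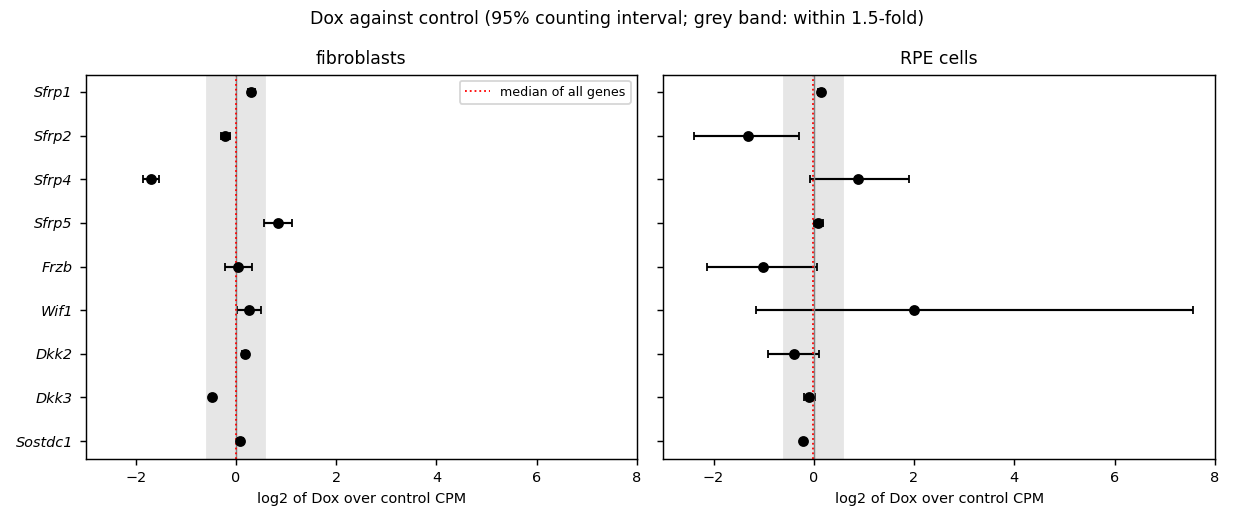
Log2 ratio of Dox over control CPM for each antagonist in fibroblasts (left) and RPE cells (right), with 95% counting intervals and a grey band for differences within 1.5-fold. Sfrp4 at -1.69 and Sfrp5 at 0.84 lay outside the band in fibroblasts, and Sfrp2 at -1.32 in RPE cells, while the wide Wif1 interval in RPE cells came from 1 and 5 UMIs.

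Within RPE cells, the 3 members with high levels were within 1.5-fold between the libraries. The log2 Dox/control ratio was 0.14 for Sfrp1 (0.08 to 0.20), 0.09 for Sfrp5 (-0.004 to 0.18) and -0.21 for Sostdc1 (-0.24 to -0.17). Dkk3 was at -0.09 (-0.20 to 0.02) and Dkk2 at -0.40 (-0.91 to 0.10). Of the 8 members with at least 20 UMIs, 1 was past the fold, beside 7.12% of 13937 genes. This was Sfrp2, lower in Dox with a log2 ratio of -1.32 (-2.40 to -0.30), from only 26 and 13 UMIs. With the cells of both gates counted in, it turned to 0.30. Dcn itself was at 225 (control) and 121 CPM (Dox) in RPE cells. Frzb (-1.01, -2.13 to 0.06) and Sfrp4 (0.88, -0.07 to 1.90) had intervals that included 0, and Wif1 had too few UMIs.

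The RPE cells were not uniform. RPE cells were split by Serpina3n, the gene of an acute-phase serine protease inhibitor, into those with at least 10 UMIs and 500 CPM and the rest. This gave 24 Serpina3n-high cells of 1336 in control (1.80%) and 212 of 1490 in Dox (14.2%). Their median depth was 33085 and 29130 UMIs, against 16442.5 and 16864.5 in the Serpina3n-low cells. In Dox the high cells held less Sostdc1, Sfrp5 and Sfrp1 and more Dkk3 than the low cells of the same library.

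In the Dox library, Sostdc1 was at 109 CPM in Serpina3n-high cells and 473 CPM in low cells, a log2 ratio of -2.12 (-2.24 to -2.01). Sfrp5 was at 22.7 and 92.0 CPM, a log2 ratio of -2.02 (-2.28 to -1.77), and Sfrp1 at 135 and 208 CPM, a log2 ratio of -0.63 (-0.73 to -0.52). Dkk3 went the other way, at 130 and 30.8 CPM with a log2 ratio of 2.08 (1.93 to 2.23). The 24 control cells leaned the same way by less, with log2 ratios of -0.50 (-0.68 to -0.31) for Sostdc1, -0.26 (-0.72 to 0.16) for Sfrp5, -0.24 (-0.52 to 0.03) for Sfrp1 and 0.88 (0.52 to 1.22) for Dkk3. The median log2 ratio over all genes was -0.12 in control and -0.18 in Dox. At 2-fold with at least 20 UMIs, a threshold set after the values were seen, 0 of 7 members in control and 4 of 6 in Dox were called, beside 5.92% and 8.79% of genes. Of the 4, 1 was higher (Dkk3) and 3 were lower (Sostdc1, Sfrp5 and Sfrp4), and the Sfrp4 call came from the 1 low cell with 26 UMIs.

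Other markers moved with this split. Rpe65 was at 2094 CPM in the Dox Serpina3n-high cells against 5732 CPM in the low cells, and Rlbp1, a carrier of retinoids in the RPE, was at 1997 against 2910 CPM. The abundant RPE transcript Ttr was closer, at 68200 and 74218 CPM. The melanocyte genes did not move together, with Pmel at 40.6 and 65.3, Mlana at 307 and 137, and Dct at 924 and 1093 CPM, and Dcn was lower in the high cells, at 86.4 against 130 CPM. In the Dox cells of the RPE-like cluster with under 100 CPM of Dcn and no Pmel UMI (90 high and 428 low cells, a limit chosen after the values were seen), Dkk3 was at 108 against 22.4 CPM, Sostdc1 at 130 against 514 CPM and Sfrp5 at 21.5 against 99.8 CPM. Mlana and Dct were not limited in these cells, and the part of melanocyte RNA in the Dkk3 difference was not tested.

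Between the libraries, the Serpina3n-low cells had a log2 Dox/control ratio of 0.03 (-0.005 to 0.07) for Sostdc1, 0.33 (0.23 to 0.42) for Sfrp5, 0.24 (0.18 to 0.31) for Sfrp1 and -0.80 (-0.93 to -0.66) for Dkk3. In the Serpina3n-high cells the ratios were -1.59 (-1.81 to -1.38) for Sostdc1, -1.43 (-1.92 to -0.91) for Sfrp5, -0.14 (-0.43 to 0.16) for Sfrp1 and 0.40 (0.06 to 0.77) for Dkk3. The high cells were not alike in the libraries, with Serpina3n itself at 1992 CPM in the 24 control cells and 5676 CPM in the 212 Dox cells. The near equality of the RPE cells as a whole therefore hid different values in the subsets. The free Dkk3 of the 2 libraries also differed, at 158 (control) and 36.4 CPM (Dox) in NK or T-like cells, and its part in the low cells was not tested.

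**Figure D4:**
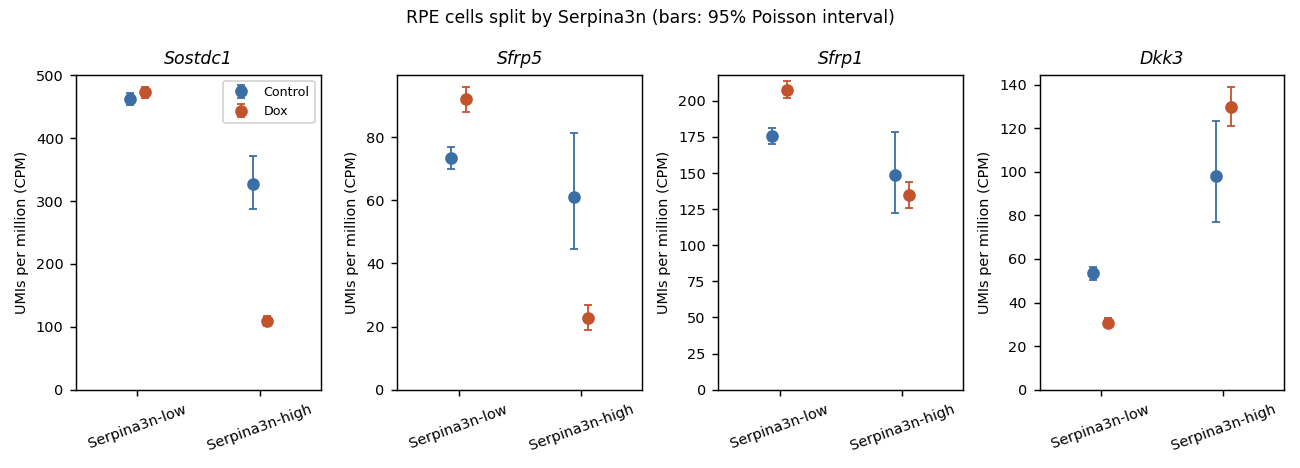
Levels of Sostdc1, Sfrp5, Sfrp1 and Dkk3 in UMIs per 1000000 (CPM, linear axes from 0) in Serpina3n-low and Serpina3n-high RPE cells of the control and Dox libraries, with 95% Poisson intervals. In Dox the high cells held 109 against 473 CPM of Sostdc1 and 130 against 30.8 CPM of Dkk3, and the 24 control high cells lay between.

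In melanocyte-like cells 3 of the 7 members with enough UMIs were higher in Dox (beside 6.84% of 11482 genes) and 2 were lower (beside 5%). Sfrp1 went from 48.1 to 117 CPM, Sostdc1 from 67.1 to 153 CPM and Sfrp5 from 7.01 to 19.2 CPM. These are the 3 members that were higher in RPE cells, and Rpe65 in the melanocyte-like cells went from 617 to 1519 CPM. Set against Rpe65 at the ratio seen in RPE cells, Sfrp5 was at 0.804 and 0.810 times, Sostdc1 at 1.23 and 1.26 times and Sfrp1 at 2.30 and 1.99 times, and the part of RPE RNA in these differences was not tested. The class was not made up alike in the libraries, since at resolution 0.2 an Hbb-bs-led cluster held 956 control and 1339 Dox cells and a melanocyte-like one 1227 and 730. The lower members were Sfrp2, from 40.8 to 26.7 CPM, and Frzb, from 14.5 to 6.26 CPM.

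The rest of the Wnt pathway was read from a list of 80 names, of which 79 were in the files. In fibroblasts 60 had enough UMIs, 2 were higher in Dox (beside 1.3% of genes) and 0 lower (beside 5.3%), and the median log2 ratio was 0.09. Both of the higher ones were low in level, Sost, the sclerostin gene, from 5.57 to 10.6 CPM (log2 ratio 0.93) and the ligand Wnt5b from 2.85 to 4.34 CPM (0.61). In RPE cells 49 had enough UMIs, 0 were higher (beside 1.59%) and 3 lower (beside 5.54%), and the median was -0.02. The 3 were Tpbg, an inhibitor at the membrane, from 5.33 to 3.25 CPM (-0.71), Nkd1, a feedback inhibitor, from 30 to 9 UMIs (-2.05), and Ccn4, a target gene, from 2.77 to 1.75 CPM (-0.67).

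The fibroblasts held the ligand Wnt5a at 126 (control) and 139 CPM (Dox), and Wls, which carries Wnt ligands to the surface, at 148 and 158 CPM. Their receptors at about 50 CPM or more were Fzd1 (66.6 and 70.0), Fzd2 (48.4 and 50.3) and the co-receptor Lrp6 (117 and 127). The agonist Rspo3 was at 50.6 and 67.6 CPM, and the extracellular inhibitors Igfbp4 and Tpbg were at 7261 and 8824 CPM and at 91.6 and 102 CPM. The intracellular genes were Ctnnb1, the gene of β-catenin (286 and 275), Gsk3b (139 and 149), Csnk1a1 (228 and 233) and Tnks (55.5 and 62.8), and the targets were Ccn4 (57.1 and 68.1) and Bambi (417 and 388).

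RPE cells held the receptor Fzd4 at 125 (control) and 133 CPM (Dox), Lrp6 at 53.5 and 52.0 CPM and Wls at 330 and 333 CPM. Igfbp4 was at 313 and 235 CPM, and no Wnt ligand of the list reached 50 CPM. The intracellular genes were Ctnnb1 (190 and 196 CPM), Gsk3b (159 and 166 CPM) and Csnk1a1 (187 and 188 CPM), and the cyclin gene Ccnd1 was at 292 and 288 CPM.

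The genes whose levels were most like those of each member were taken over 34 profiles, 17 classes and subsets in both libraries, by Pearson r of log2(CPM + 10) among 8145 genes. The profiles share libraries, and the subsets share cells with the classes, so r is a description. Dkk2 was most like Serpinf1 (0.96), Pdgfrl (0.94) and Ntn1 (0.93). Sfrp2 was most like Cilp2 (0.95), Fmod (0.95) and Gask1a (0.94), and Sfrp4 like Ssc5d (0.95), Dio2 (0.95) and Osr2 (0.94). Sfrp1 was most like Dbi (0.91), Tafa5 (0.88) and Cntf (0.87), and Sfrp5 like Cntf (0.88), Dbi (0.86) and Sfrp1 itself (0.85). Sostdc1 was most like Ephx2 (0.87), Paxx (0.84) and F3 (0.83), and Dkk3 like Glrb (0.88), Gstp1 (0.86) and Gjb2 (0.86). The profiles include the 12 and 3 Kera cells. Frzb reached 50 CPM in no class, and Wif1 only through 1 UMI in the 3 Dox Kera cells, so neither is described here.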

How the data were processed

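Cells of RPE, choroid and sclera were measured with the 10x 5′ kit, 1 library per condition. The deposited matrices hold raw counts, each a UMI total for a gene in a cell, which the authors made with Cell Ranger on mm10. Their data processing section names version 4.0.0, and another section of the paper names a later version. The values in these matrices were not normalised. Cells were kept with over 500 UMIs, over 200 and under 6000 genes, complexity over 0.8 and a mitochondrial share under 0.2. UMIs were summed per class and library. Levels have exact Poisson intervals, shares have exact Clopper-Pearson intervals, and ratios have exact conditional binomial intervals, at 95%. No p-value was computed. A floor of 3 counts was used where a class held 0 UMIs. Only counting error is covered, and neither mice nor libraries are replicated.

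Kept cells were clustered with Seurat 5.3.0 and sctransform 0.4.2 (R 4.3.3) on 2977 of 3000 features, leaving out 23 members and pathway genes, with 40 components at resolution 0.1. A cluster was named when at least 3 of its markers were at 10 CPM and 1 was among its 10 leading genes. All clusters held 10 to 12 fibroblast markers at 10 CPM, so the Myoc-led, Cxcl10-led and Dpt-led clusters were called by leading gene. The Ighv1-55-led cluster (10 of 10 macrophage markers) and the Snhg7os-led cluster stayed unnamed. Scrublet scores from scanpy 1.11.5 were used to leave out doublets, 0.8% per 1000 cells, only as an alternative. Counts were handled in Python 3.11.15 with pandas 2.3.3, numpy 2.4.6 and scipy 1.17.1. The intervals and calls were run on simulated Poisson counts of class totals. Such counts hold no clumping of UMIs in single cells, so the run cannot show how the calls behave where a few cells hold most UMIs.

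The named genes were the 9 members, the Wnt pathway genes at 50 CPM in fibroblasts or RPE cells or past the fold, and the 3 genes most like each member at 50 CPM in some class, except Wif1, which passed by 1 UMI. The members and lists were chosen with earlier results of these data known. Promoter windows came from RefSeq and gene positions from GENCODE on GRCm38.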

Additional observations from a re-analysis of the deposited data

Results flagged for a closer look

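Sostdc1 was flagged because it lay in opposite directions in the 2 cell types. The log2 ratio of Dox over control was 0.084 in fibroblasts and -0.207 in RPE cells. Each cell type had 1 library per condition, so the difference between the cell types was not tested.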

How the results depend on the processing

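No paired analysis was possible because each condition has 1 library. No replicate could be left out for the same reason. Of 397 values for single members over 16 settings, 323 stayed within their counting interval, 73 moved outside it and 1 value that had been called reversed. This was Sfrp2 in RPE cells, at a log2 ratio of 0.30 when cells in both gates were counted. Among Dox over control values that were not called, the sign also changed under 1 or 2 settings for Sfrp2, Frzb and Dkk3 in fibroblasts and for Sfrp4, Sfrp5, Dkk2 and Dkk3 in RPE cells. Between Dox and control in fibroblasts, 2 members were past the fold, and 1 was with cells in both gates counted, with cells thinned to 2000 UMIs, at 2-fold, or without the highest cell of each member. In RPE cells 1 member was past the fold. It became 2 with a mitochondrial share under 0.1, with no upper limit on genes and complexity, without the highest doublet scores, with stricter gates, or with gate and cluster together, and 0 with cells in both gates counted, thinned cells, free RNA subtracted or at least 100 UMIs. Of the Wnt pathway list, 2 in fibroblasts became 11 with free RNA subtracted and 0 at 2-fold. The 3 in RPE cells became 9 with stricter gates, 6 with the mean of the cells' own CPM, 10 with free RNA subtracted, 1 at 2-fold and 5 with gate and cluster together. The 3 members higher in RPE cells became 1 at 4-fold. For 5 of the 9 members the highest class remained when classes under 100 cells were left out. With free RNA subtracted, the fibroblast log2 ratio of Dkk3 went from -0.48 to 3.53 and that of Frzb from 0.05 to -5.58. The subtracted level was 158 of 165 CPM for Dkk3 in control and 4.05 of 4.12 CPM for Frzb in Dox, so little was left. The Frzb levels subtracted came from 1 (control) and 4 UMIs (Dox). The causes of the other changes were not tested.

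The settings of gate and cluster together, the highest cell, the Dpt-led cluster, classes of at least 100 cells and the RPE subsets were chosen after seeing the data. Limiting Pmel, Mlana and Dct together in RPE cells left 0 control cells and 1 high and 2 low Dox cells, so no Pmel UMI was required instead, which left 1 high control cell and gave a value in Dox only. Depth limits Wif1, Frzb and Sfrp4 in RPE cells and every member in Schwann-like cells.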
